A study of Arabidopsis thaliana with 12 samples.

Results

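DMR6 (AT5G24530), DLO1 (AT4G10500), UGT74F1 (AT2G43840), UGT74F2 (AT2G43820) and BSMT1 (AT3G11480) encode enzymes that convert the plant immune hormone salicylic acid (SA) into other compounds. These 5 genes were chosen for that known function, by locus, from the 32627 loci measured, and all 5 had a value on every array. Leaf RNA was profiled on 12 arrays in 4 groups of 3 independent experiments: sid2 DEX, sid2 mock, Col DEX and Col mock. All plants carried a transgene whose promoter responds to dexamethasone (DEX) and which encodes MKK4DD, an always-active version of MKK4, a kinase that turns on MAP kinases. Col is the wild type and sid2 carries the sid2-2 mutation in SID2 (isochorismate synthase 1), the main enzyme of pathogen-induced SA synthesis. Leaves of plants 4 weeks old received 2 µM DEX, or 0.1% ethanol as mock, and were collected 24 h later. No plants lacking the transgene were analysed here, so that a response to DEX itself and a response to MKK4DD cannot be told apart.

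SA made through isochorismate is a signal of both local and systemic immunity, and leaves keep its active pool in check by modifying it. Hydroxylation takes SA out of the active pool, glucosylation stores it as a conjugate from which SA can be released again, or as a glucose ester, and methylation gives methyl salicylate, a volatile that esterases can turn back into SA. Many of the genes for these steps are themselves known to respond to SA or to infection.

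The values were intensities summarised with the robust multi-array average (RMA) and are given on the log2 scale, on which a step of 1 is a 2-fold difference. Levels of different genes on these arrays were not compared, since each gene has probes of its own. A gene was called changed when its p-value from limma, adjusted over all loci by the method of Benjamini and Hochberg, was under 0.01 and its change exceeded 2-fold, and all adjusted p-values below are of this kind. Median intensities lay between 255 and 289, and arrays of 1 group correlated at r = 0.985 to 0.995 across loci. MKK4 RNA, not split here between the transgene and the native gene, was 13.82 to 14.22 on the sid2 DEX arrays against 11.75 to 12.19 on the sid2 mock arrays, and 14.04 to 14.23 on the Col DEX arrays against 11.95 to 12.36 on the Col mock arrays. The summed level of the 4 leaf markers RBCS1A, LHCB1.3, CA1 and RCA was 14.75 to 15.14 in sid2 DEX against 16.05 to 16.12 in sid2 mock, and 14.56 to 15.09 in Col DEX against 16.00 to 16.14 in Col mock. The sum of these photosynthesis genes was lower on every DEX array than on any mock array, and their part in the results that follow was not tested. Their changes were uneven, from -0.40 (RCA) to -3.91 (CA1) in sid2 and from -0.45 (RCA) to -5.38 (CA1) in Col. The summed level of 4 root, flower and seed markers was 7.00 to 7.34 in sid2 DEX against 8.76 to 9.24 in sid2 mock, and 6.99 to 7.40 in Col DEX against 9.06 to 9.78 in Col mock. CRA1, 1 of these 4, changed by 0.26 in sid2 and by -0.11 in Col. In bulk leaf tissue, fewer cells of a type and less RNA per cell cannot be told apart.

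One array went against its label. SID2 (listed as EDS16) was at 6.11, 6.00 and 6.21 in sid2 DEX replicates 1, 2 and 3 and at 6.00, 6.26 and 6.12 in sid2 mock. In Col DEX it was at 12.48, 6.08 and 12.26, against 10.36, 9.72 and 10.21 in Col mock. The array labelled Col DEX replicate 2 therefore had SID2 in the range of the mutant, while its MKK4 level of 14.05 was that of a DEX-treated sample. Each comparison of groups for the 5 genes is given with all 12 arrays and with the 11 others.

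**Figure D1:**
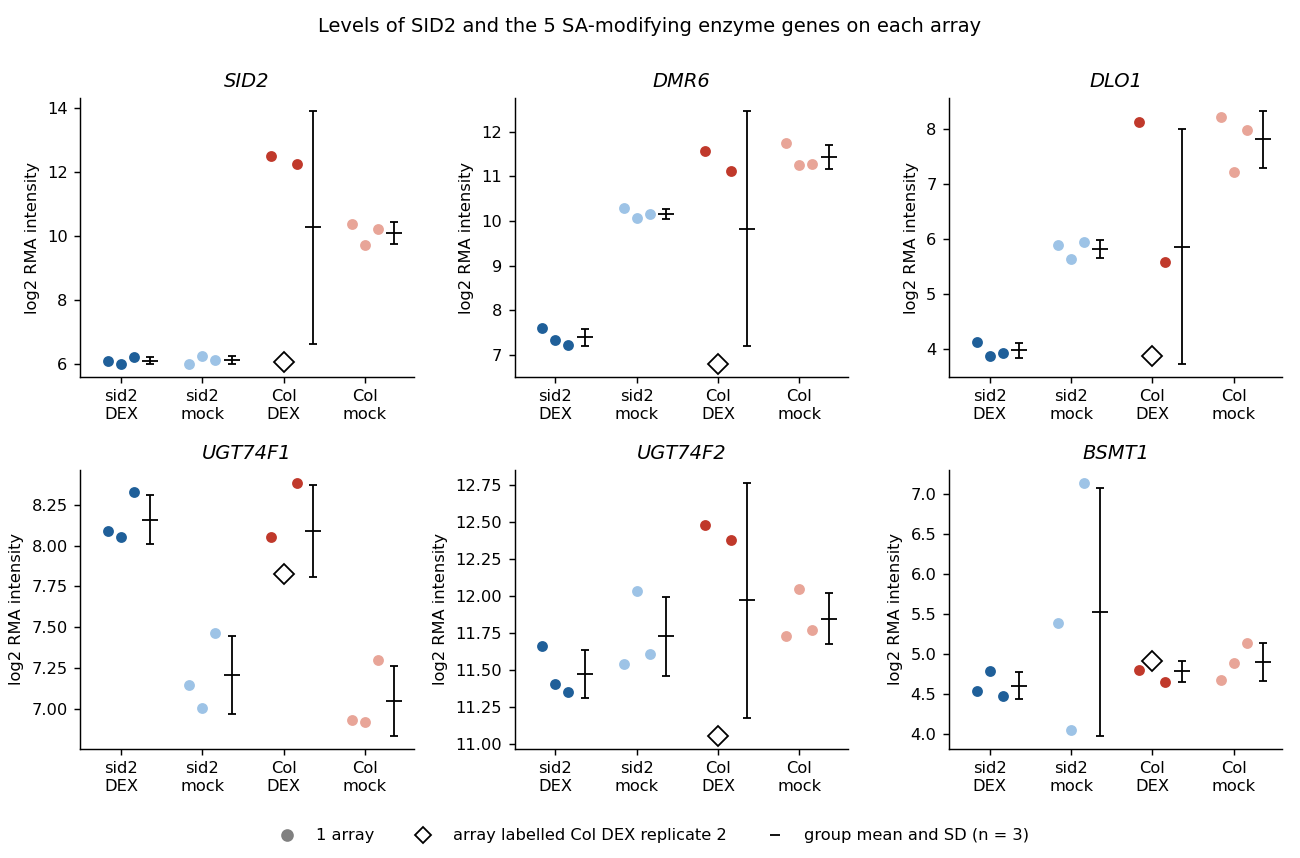
Levels of SID2 and of the 5 genes of SA modification on each array, as log2 RMA intensity, by genotype and treatment. Each point is 1 array, the open diamond is the array labelled Col DEX replicate 2, and the horizontal marks with bars give the group mean and SD (n = 3). DMR6 was at 7.23 to 7.60 in sid2 DEX and at 10.06 to 10.28 in sid2 mock, while UGT74F1 was higher on every DEX array than on any mock array.

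DMR6 encodes an SA hydroxylase of the 2-oxoglutarate-dependent dioxygenases, and loss of the gene is known to leave plants with more SA and more resistant to downy mildew. In sid2 plants its RNA was much lower after DEX. It was at 7.60, 7.34 and 7.23 in sid2 DEX replicates 1, 2 and 3, against 10.28, 10.06 and 10.15 in sid2 mock, or intensities of 195, 162 and 150 against 1243, 1065 and 1138. The groups did not overlap, as held towards lower DEX values for 28.3% of loci, and the same-numbered arrays differed by -2.68, -2.71 and -2.92. The change was -2.77 ± 0.86 (SE, n = 3 each) with all 12 arrays, at an adjusted p of 0.0175, which missed the threshold. The array labelled Col DEX replicate 2 is in neither group and enters this comparison only through the shared estimate of the spread. With the 11 other arrays the change was -2.77 ± 0.13, or 6.83-fold lower, and was called at an adjusted p of 8.75e-08. It was also called in a fit to the sid2 arrays alone (-2.77 ± 0.13, adjusted p = 8.88e-06).

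In Col plants, DMR6 was at 11.57, 6.79 and 11.11 in the DEX arrays, against 11.74, 11.26 and 11.28 in the mock arrays. Replicates 1 and 3 of Col DEX lay 0.16 below their mock arrays, and the array labelled replicate 2 lay below all 3 sid2 DEX arrays. The change was -1.60 ± 0.86 with all arrays (95% confidence interval -3.50 to 0.31, adjusted p = 0.142) and -0.11 ± 0.15 without that array (-0.45 to 0.24, adjusted p = 0.611).

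The response of DMR6 to DEX was set against itself in the 2 backgrounds by the difference of the changes, sid2 minus Col. With all 12 arrays the difference was -1.17 ± 1.22 (95% confidence interval -3.87 to 1.52, adjusted p = 1). With 11 arrays it was -2.67 ± 0.20 (-3.12 to -2.21), at an adjusted p of 0.00552. When all replicate 2 arrays were left out, that array among them, it was -2.64 ± 0.27 and was not called (adjusted p = 0.118). With 11 arrays DMR6 had the lowest p of all 32627 loci for this difference and was 1 of 3 loci called, 0.00919% of those tested. With all 12 arrays 0 loci (0%) were called, and 734 had an unadjusted p under 0.05. With 11 arrays 952 loci had such a p. Both counts are fewer than a share of 0.05 of the 32627 loci, which would fall there if none differed.

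Genotypes were also compared within each treatment. In mock plants DMR6 was 1.26 ± 0.86 lower in sid2 than in Col with all arrays (adjusted p = 0.79) and lower by the same amount, with an SE of 0.13, with 11 arrays (adjusted p = 0.0194), so that it was not called in either setting. The 3 sid2 mock arrays were all below the 3 Col mock arrays, as held for 5.68% of loci. After DEX the difference, sid2 minus Col, was -2.43 ± 0.86 with all arrays (adjusted p = 0.797). With 11 arrays it was -3.93 ± 0.15, or 15.2-fold lower, called at an adjusted p of 4.67e-06 among 38 loci, all of them lower in sid2 (0.116%).

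DLO1 encodes a dioxygenase closely related to DMR6 that also hydroxylates SA and is known from senescing leaves. Its levels were lower after DEX in sid2 as well. They were 4.13, 3.88 and 3.92 in sid2 DEX replicates 1, 2 and 3, against 5.88, 5.64 and 5.95 in sid2 mock. The groups did not overlap, as held for 28.3% of loci, and the 3 DEX values lay below the lower quartile of all loci on the sid2 DEX arrays, 4.16 to 4.19. The change was -1.84 ± 0.69 with all 12 arrays (adjusted p = 0.0417, not called) and -1.84 ± 0.46 with 11 arrays, where it was called at an adjusted p of 0.00654, 3.59-fold lower. It was also called with an adjusted p of 0.000921 when Col DEX replicate 1, itself in neither group, was left out instead, and with an adjusted p of 3.68e-05 in a fit to the sid2 arrays alone.

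In Col, DLO1 was at 8.12, 3.88 and 5.59 in the DEX arrays, against 8.21, 7.22 and 7.98 in the mock arrays. Here the Col DEX arrays that matched their label differed from each other: replicate 1 lay 0.09 below its mock array and replicate 3 lay 2.39 below. The change was -1.94 ± 0.69 with all arrays (adjusted p = 0.0328) and -1.02 ± 0.53 without the array labelled replicate 2 (95% confidence interval -2.20 to 0.16, adjusted p = 0.137), and of the fits that left out 1 array it was called only in the one without replicate 1, at -3.03 ± 0.38 and an adjusted p of 7.62e-05. The difference between the responses, sid2 minus Col, was 0.10 ± 0.98 with all arrays (-2.06 to 2.26) and -0.83 ± 0.70 with 11 arrays (-2.40 to 0.74), each with an adjusted p of 1. In sid2 the fall ended below the lower quartile of all loci, and whether this limited its size was not tested.

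Between genotypes, DLO1 was 1.98 ± 0.69 lower in sid2 than in Col among mock plants (adjusted p = 0.667), with all 3 sid2 arrays below all 3 Col arrays, as held for 5.68% of loci. The same difference had an SE of 0.46 and an adjusted p of 0.479 with 11 arrays. After DEX the difference, sid2 minus Col, was -1.88 ± 0.69 (adjusted p = 0.797), and with 11 arrays it was -2.81 ± 0.53 (adjusted p = 0.0946), so that DLO1 passed the threshold between genotypes in neither treatment.

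**Figure D2:**
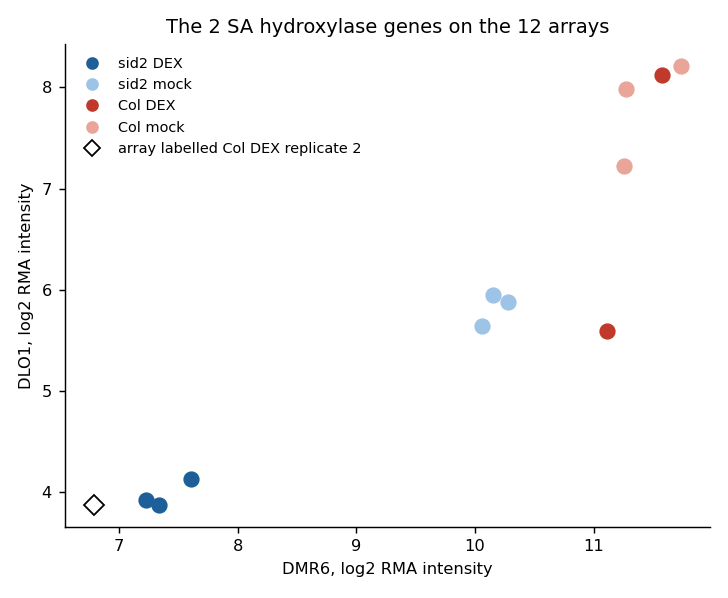
Log2 RMA intensity of DLO1 against that of DMR6 on the 12 arrays, 1 point per array. The 3 sid2 DEX arrays and the array labelled Col DEX replicate 2 sit at the low corner, with DMR6 at 6.79 to 7.60 and DLO1 at 3.88 to 4.13, and Col DEX replicate 3 has DMR6 at 11.11 and DLO1 at 5.59.

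The hydroxylase genes followed each other across the arrays, with Pearson's r = 0.927 over the 12 arrays and 0.92 over 11, a description in which the arrays share their group and their experiment. The order of the DMR6 group means over 11 arrays was, from low to high, sid2 DEX (7.39 ± 0.19, SD, n = 3), sid2 mock (10.16 ± 0.11, n = 3), Col DEX (11.34 ± 0.33, n = 2) and Col mock (11.42 ± 0.27, n = 3). In that order only the neighbours Col DEX and Col mock overlapped. With all 12 arrays Col DEX averaged 9.83 ± 2.64 and fell between sid2 DEX and sid2 mock in the order. For DLO1 the order over 11 arrays was the same, at 3.98 ± 0.14, 5.82 ± 0.16, 6.85 ± 1.79 and 7.80 ± 0.52, and only the step between sid2 DEX and sid2 mock was free of overlap.

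UGT74F1 encodes a glucosyltransferase that forms mainly the SA 2-O-glucoside, the storage form kept in the vacuole. It was the gene of the 5 that was higher on all DEX arrays than on all mock arrays in both backgrounds. Its levels were 8.09, 8.05 and 8.33 in sid2 DEX replicates 1, 2 and 3, against 7.15, 7.00 and 7.47 in sid2 mock. In Col they were 8.05, 7.82 and 8.39 in DEX, against 6.93, 6.92 and 7.30 in mock. Such separation towards higher DEX values held for 32.3% of loci in sid2 and 30.9% in Col.

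The change of UGT74F1 in sid2 was 0.95 ± 0.13 (adjusted p = 9.23e-05), which passed the test on p but missed the 2-fold limit, and in Col the gene rose by 1.04 ± 0.13 and was called (adjusted p = 4.49e-05). Both changes lay at the 2-fold limit. The call in Col was lost without Col mock replicate 1 (0.99) or Col DEX replicate 3 (0.94), and a call in sid2 was gained without sid2 mock replicate 3 (1.03), after shifting all arrays to 1 median or after quantile normalization (1.07). With 11 arrays the changes were 0.95 ± 0.12 in sid2 (adjusted p = 9.14e-05, not called) and 1.14 ± 0.14 in Col (adjusted p = 7.52e-05, called). The difference between the responses, sid2 minus Col, was -0.09 ± 0.19 with all arrays (95% confidence interval -0.50 to 0.33) and -0.18 ± 0.19 with 11 arrays, and the genotypes differed by 0.16 ± 0.13 in mock and by 0.07 ± 0.13 after DEX (sid2 minus Col, adjusted p = 0.829 and 0.999). With 11 arrays the genotypes differed by 0.16 ± 0.12 in mock (adjusted p = 0.824) and by -0.03 ± 0.14 after DEX.

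UGT74F2, the gene next to UGT74F1 on chromosome 2 with 0 protein-coding genes between them, encodes a glucosyltransferase that forms mainly the SA glucose ester. Its levels were 11.66, 11.40 and 11.35 in sid2 DEX, against 11.54, 12.04 and 11.61 in sid2 mock. The groups overlapped, and the change of -0.25 ± 0.31 was not called (adjusted p = 0.521, and 0.153 at -0.25 ± 0.14 with 11 arrays). Whether the array's probes keep these related neighbours apart was not tested, nor was it for the other related genes of the families below.

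In Col, UGT74F2 was at 12.48, 11.06 and 12.38 in DEX, against 11.73, 12.05 and 11.77 in mock. Replicates 1 and 3 of Col DEX were above all mock arrays, as held for 33.2% of loci over 11 arrays, and the array labelled replicate 2 was the lowest of the 12. The change was 0.12 ± 0.31 with all arrays (adjusted p = 0.767) and 0.61 ± 0.16 without that array (95% confidence interval 0.26 to 0.97, adjusted p = 0.00818), which stayed under 2-fold and was not called. The difference between the responses, sid2 minus Col, was -0.38 ± 0.44 with all arrays and -0.87 ± 0.21 without that array, where the unadjusted p was 0.00224 and the adjusted p was 1.

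Between genotypes, UGT74F2 differed by -0.12 ± 0.31 in mock plants (sid2 minus Col, adjusted p = 0.955, and 0.881 with 11 arrays). After DEX the difference was -0.50 ± 0.31 (adjusted p = 0.911). Over 11 arrays the sid2 DEX values were all below the Col DEX values, as held for 11.6% of loci, and the difference was -0.99 ± 0.16 at an adjusted p of 0.0441, again not called.

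BSMT1 encodes the SABATH-family methyltransferase that makes methyl salicylate and methyl benzoate. It was dim on all arrays but 1, at intensities of 16.6 to 42.1 beside array medians of 255 to 289. Its levels were 4.55, 4.80 and 4.47 in sid2 DEX, against 5.39, 4.06 and 7.14 in sid2 mock. In Col they were 4.80, 4.92 and 4.65 in DEX, against 4.68, 4.89 and 5.14 in mock. All groups overlapped, and sid2 mock replicate 3 stood 2.00 above Col mock replicate 3 while sid2 mock replicate 2 was the lowest of all.

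The change of BSMT1 with DEX was -0.92 ± 0.53 in sid2 (95% confidence interval -2.10 to 0.25, adjusted p = 0.168) and -0.11 ± 0.53 in Col (-1.29 to 1.06, adjusted p = 0.876). Without sid2 mock replicate 2 the change in sid2 became -1.68 ± 0.37 and was called (adjusted p = 0.00305), so that the call turned on 1 mock array. With 11 arrays the changes were -0.92 ± 0.55 in sid2 and -0.28 ± 0.62 in Col. The difference between the responses, sid2 minus Col, was -0.81 ± 0.75, and the genotypes differed by 0.63 ± 0.53 in mock and by -0.18 ± 0.53 after DEX (sid2 minus Col), none of them called. With 11 arrays the difference between the responses was -0.64 ± 0.83. That between genotypes was 0.63 ± 0.55 in mock and -0.02 ± 0.62 after DEX, again not called.

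**Figure D3:**
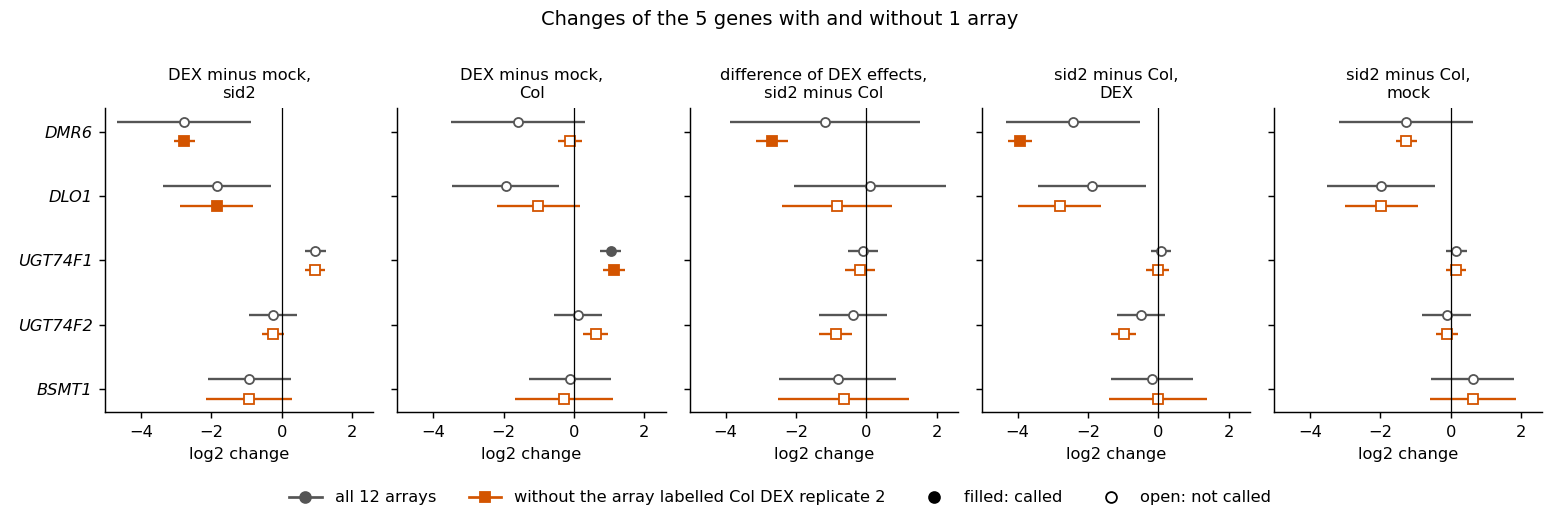
Log2 changes of the 5 genes in the 5 comparisons, with all 12 arrays and with the 11 that leave out the array labelled Col DEX replicate 2, with bars for the 95% confidence interval. For DMR6 the difference of the responses is -1.17 with all arrays and -2.67 with 11, and UGT74F1 stays between 0.95 and 1.14 for DEX minus mock in both backgrounds and settings.

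Counted over the 5 genes with all 12 arrays, 0 were called in sid2 after DEX, where 27.8% of all loci were called, and 1 was called in Col (UGT74F1, higher), where 28.7% of all loci were called. With 11 arrays, 2 were called in sid2 (DMR6 and DLO1, both lower, against 14.8% of loci called lower) and 1 in Col (UGT74F1, against 13.2% called higher). Whether counts of 1 or 2 of 5 differ from these shares of all loci was not tested. Between genotypes in mock plants 0 of the 5 were called with all arrays (0.00306% of loci) or with 11 (0.00613%). After DEX, 0 were called between genotypes with all arrays (0% of loci) and 1 with 11 (DMR6, lower, against 0.116% of loci). The difference between the responses likewise gave 0 with all arrays (0%) and 1 with 11 (DMR6, lower, against 0.00919%).

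The array labelled Col DEX replicate 2 was compared gene by gene with the sid2 DEX arrays. It lay below the range of sid2 DEX for DMR6 (6.79 against 7.23 to 7.60), UGT74F1 (7.82 against 8.05 to 8.33) and UGT74F2 (11.06 against 11.35 to 11.66), and at the lower end for DLO1. BSMT1, at 4.92, lay above the sid2 DEX range of 4.47 to 4.80. The other Col DEX arrays were at 11.11 and above for DMR6, at 5.59 and above for DLO1, at 12.38 and above for UGT74F2, at 8.05 and above for UGT74F1 and at 4.80 and below for BSMT1. UGT74F1 and BSMT1 thus placed the array equally near to sid2 DEX and to the other Col DEX arrays.

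Other genes for SA modification and for the turnover of its conjugates were followed as a list of 14. With all arrays 4 were called higher, 3 lower and 7 not called in sid2, and the same numbers held in Col, with median changes of 0.11 in sid2 and 0.09 in Col beside medians over all loci of 0.04 in both backgrounds. The shares of all loci called higher and lower were 13.0% and 14.8% in sid2, and 13.8% and 15.0% in Col. With 11 arrays the counts were 3, 3 and 8 in sid2, and 4, 3 and 7 in Col. The genes called higher with all arrays were UGT76B1, UGT89A2, MES1 and GH3.5 (listed as WES1), and those called lower were MES2 (listed as ACL), MES7 and MES9, in both backgrounds. None of the 14 was called for the difference between backgrounds or between genotypes, with 12 or with 11 arrays.

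UGT76B1, a glucosyltransferase known to act on SA, isoleucic acid and N-hydroxypipecolic acid, had the largest change of the list. It was at 12.18, 12.18 and 11.83 in sid2 DEX, against 5.43, 4.55 and 5.14 in sid2 mock, and at 13.43, 12.05 and 13.24 in Col DEX, against 6.65, 6.66 and 7.07 in Col mock. DEX and mock arrays were far apart in both backgrounds, and the array labelled Col DEX replicate 2 again lay in the range of sid2 DEX. UGT76B1 rose by 7.02 ± 0.30 in sid2 (adjusted p = 8.67e-09) and by 6.11 ± 0.30 in Col (adjusted p = 2.23e-08).

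The methyl esterases MES1, MES2, MES4, MES7 and MES9 are known to hydrolyse methyl salicylate, the reverse of the step BSMT1 catalyses. MES2 changed by -2.30 in sid2 and by -2.60 in Col, MES7 by -2.17 and -2.13, and MES9 by -2.69 and -1.78. MES1 rose by 1.03 in sid2 and by 1.05 in Col at adjusted p of 0.00899 and 0.00785, and both calls were lost with 11 arrays, as in 14 of 23 alternative settings for sid2 and in 12 for Col. MES4 changed by -0.43 in sid2 and by -0.47 in Col and was not called. GH3.5, which joins amino acids to auxin and SA, rose by 2.53 in sid2 and by 2.09 in Col. UGT89A2, which adds a sugar to dihydroxybenzoic acids, rose by 1.42 and 1.56.

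DLO2, the dioxygenase gene next to DLO1 on chromosome 4 with 0 protein-coding genes between them, UGT71C3, UGT89B1, UGT76D1, UGT75B1 and the sulfotransferase gene SOT12 were not called in either background with all arrays. With 11 arrays, UGT76D1 was called in Col alone, at 1.14 and an adjusted p of 0.00784, and no difference between backgrounds was called for it.

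Of the other UGT74 genes, 4 of 5 were matched to a locus on the array, of which 1 was called higher, 2 were called lower and 1 was not called, in each background, where 13.0% (sid2) and 13.8% (Col) of all loci were called higher and 14.8% and 15.0% lower. UGT74E2, whose enzyme glucosylates the auxin indole-3-butyric acid, rose by 4.08 in sid2 and by 3.91 in Col. UGT74C1, of glucosinolate synthesis, changed by -2.35 in sid2 and by -2.49 in Col, and UGT74D1, which acts on auxins, by -1.48 and -1.60. Both calls of UGT74D1 were lost without all replicate 2 arrays (-1.62 in sid2, adjusted p = 0.0136, and -1.57 in Col, adjusted p = 0.0152). UGT74B1, also of glucosinolate synthesis, changed by 0.62 and 0.71, under 2-fold.

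Of 10 other genes of the SABATH methyltransferase family, 2 were called higher, 5 lower and 3 not called, in sid2 and in Col alike, with medians of -0.79 and -0.75 beside 0.04 over all loci in both backgrounds. Of all loci, 13.0% were called higher and 14.8% lower in sid2, and 13.8% and 15.0% in Col. JMT, which makes methyl jasmonate, fell by 4.29 in both backgrounds, and IAMT1, which methylates the auxin indole-3-acetic acid, changed by -4.63 in sid2 and by -4.84 in Col. FAMT, a farnesoic acid methyltransferase, changed by -2.61 in sid2 and by -1.95 in Col. PXMT1, which methylates xanthines in vitro, rose by 7.69 ± 0.63 in sid2 (adjusted p = 1.31e-06) and by 8.09 ± 0.63 in Col (adjusted p = 8.11e-07). AT1G66690 rose by 4.99 ± 0.58 and 5.37 ± 0.58. Mock arrays of 1 group varied widely for both genes. PXMT1 was at 7.34, 4.75 and 6.13 in sid2 mock and at 4.44, 4.55 and 6.91 in Col mock. AT1G66690 was at 7.17, 4.94 and 6.65 in sid2 mock and at 5.11, 5.02 and 7.36 in Col mock. NAMT1 and AT3G44870 were called lower in both backgrounds, and both calls in Col were lost with 11 arrays, leaving 3 of 10 lower there. In Col they were also lost without Col DEX replicate 1 or 3 or Col mock replicate 1 or 3, and in all in 11 (NAMT1) and 12 (AT3G44870) of the 23 settings. The call of NAMT1 in sid2 was lost in 6 settings, among them the fits without sid2 mock replicate 3 (-0.86) and without sid2 DEX replicate 3 (-0.99).

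**Figure D4:**
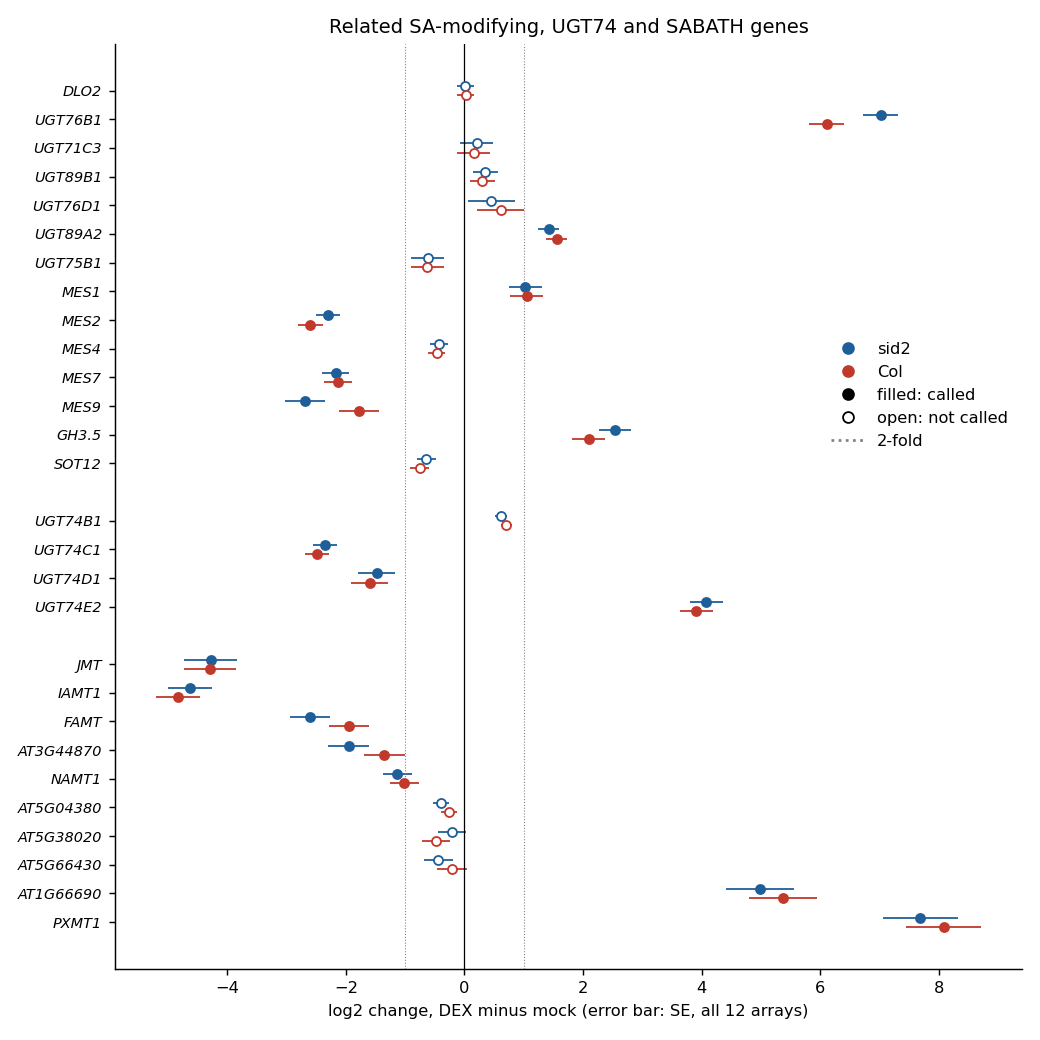
Log2 change with DEX, DEX minus mock, of 28 related genes in sid2 and Col, with bars for the SE of the fit to all 12 arrays. Filled points were called and dotted lines mark 2-fold. UGT76B1 (7.02 in sid2 and 6.11 in Col) and PXMT1 (7.69 and 8.09) are farthest to the right, JMT and IAMT1 farthest to the left.

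The genes whose levels were most like those of each enzyme gene were taken from 24465 loci with a mean level above the lower quartile, by Pearson's r over the 12 arrays. For DMR6 they were the receptor-like protein gene RLP38 (r = 0.987), AT3G11402 (0.969) and AT1G34750 (0.966), and RLP38 stayed at 0.99 over 11. For DLO1 they were AT3G15536 (0.93), RLP38 (0.923) and RIC10 (0.92). RLP38 thus stood beside both hydroxylase genes. For UGT74F1 they were AT5G64400, AT3G60176 and BTI2, at 0.982 to 0.983, for UGT74F2 AT5G08760, AT1G58225 and AT3G14280, at 0.87 to 0.911, and for BSMT1 AT3G47170, AT5G40750 and AT5G09910, at 0.894 to 0.92. These are the highest of many coefficients over arrays that share 4 groups, and carry no test.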

How the data were processed

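RNA from leaves was hybridised to NimbleGen arrays designed on TAIR9 gene models, 1 Cy3-labelled sample per array. The authors summarised probe signals with RMA, kept the higher of several transcripts of a gene, and deposited linear expression intensities for 32627 loci, with 0 missing values. For the software version, and which arrays were normalized together, nothing is given in the sources used here. RMA evens out array distributions, so a change in total RNA does not show. Probe values, flags and slides were not analysed here, and no background level was measured.

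The deposited intensities were converted to log2. A linear model of 4 group means, following the study's methods, was fitted to all loci with lmFit and eBayes of limma 3.58.1 (R 4.3.3), with the replicate number as a random block by duplicateCorrelation (statmod 1.5.0; consensus correlation 0.208). The labels number the replicates alike and the methods describe independent experiments, so same-numbered arrays were treated as paired. Their deviations correlated at 0.387 to 0.733 within a treatment, but only at 0.100 to 0.303 between DEX and mock. Contrasts were two-sided, with Benjamini-Hochberg adjustment over the whole table in place of the study's q-values. The study's threshold of 0.01 with over 2-fold was used. Names came from a RefSeq table of TAIR10.1 with entries for 31993 loci (98.1%), without coordinates.

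The 5 genes are reported whatever their values, related genes where called and otherwise by name (MES4 and UGT74B1 have values because their list was described in full), and for each of the 5 genes the 3 loci of highest r. The genes, lists, tests and alternatives were chosen with earlier results of these data known. The alternatives were leaving out each array, or all replicate 2 arrays, the replicate as a fixed block or none, only the groups compared, common medians, quantile normalization, a filter on dim loci, array weights, limma's treat, and other thresholds. The number of arrays limits the precision. Promoter sequence was not analysed here.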

Additional observations from a re-analysis of the deposited data

Results flagged for a closer look

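The response of DMR6 to DEX differed between the backgrounds by a test of the difference itself when the array labelled Col DEX replicate 2 was left out, at -2.67 on the log2 scale (sid2 minus Col, SE 0.20, adjusted p = 0.00552 in limma). The same-numbered pairs differed by -2.68, -2.71 and -2.92 in sid2 and by -0.16 and -0.16 in the 2 Col pairs that remained. Of 23 alternative settings this was the only one that called the difference. When all replicate 2 arrays were left out, which removes the same array, it was -2.64 ± 0.27 and not called (adjusted p = 0.118). With all 12 arrays the difference was -1.17 ± 1.22 (adjusted p = 1). The call thus rested on leaving out 1 array, whose SID2 level went against its label, and keeping the other replicate 2 arrays.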

How the results depend on the processing

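Each result was recomputed in 23 alternative settings. Counts of called loci after DEX stayed within 1.5 times of the reported ones except with limma's treat (5091 in sid2, 5328 in Col) and a 4-fold limit (4303 and 4485). The difference between backgrounds gave 0 to 3 loci when single arrays were left out, with 3 once the array labelled Col DEX replicate 2 was out. The sid2 effect in mock gave 0 to 2 loci in that way, 0 with a fixed replicate block or treat, 2 with common medians or array weights, and 3 at an adjusted p under 0.05. The sid2 effect after DEX gave 0 to 38 loci, with 38 again for that array, and 13 without all replicate 2 arrays.

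The sign turned in results that were not called. UGT74F2 after DEX in Col lay between -0.14 and 0.61 with 1 array left out (-0.14 without Col DEX replicate 1, -0.10 without replicate 3), and BSMT1 between -0.28 and 0.074. The difference between backgrounds lay between -0.83 and 1.19 for DLO1 (-0.64 without all replicate 2 arrays) and between -0.18 and 0.015 for UGT74F1. In mock plants the sid2 effect lay between -0.33 and 0.025 for UGT74F2 and between -0.18 and 1.39 for BSMT1. After DEX it lay between -0.028 and 0.17 for UGT74F1 (-0.0097 without all replicate 2 arrays) and between -0.39 and 0.033 for BSMT1.

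The fit without a replicate block and the fixed replicate block changed no call among the 5 genes: with no replicate block DMR6 changed by -2.77 in sid2 and UGT74F1 by 1.04 in Col. Without all replicate 2 arrays DMR6 was called for DEX in sid2 (-2.80, adjusted p = 2.98e-05) and for the sid2 effect after DEX (-3.93, adjusted p = 0.00103), but not for the difference between backgrounds (-2.64, adjusted p = 0.118). All other changes of call among the 5 genes are given with their values above, apart from those that a looser or stricter threshold makes by construction. The cause of the differences between settings was not tested. With 3 arrays a group, 1 array moves the shared spread.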
